A study of Homo sapiens with 4 samples.

Results

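Histone genes were examined in BT474, a human breast cancer cell line profiled by single-cell RNA-seq, with amplified HER2 and an active estrogen receptor. They were taken by symbol, as every gene beginning with HIST1H, HIST2H, HIST3H or HIST4H together with H1F0, H1FX, H2AFZ, H2AFX, H2AFV, H2AFY, H2AFJ, H3F3A and H3F3B. The rule found 80 of the 33538 genes counted, of which 71 were replication-dependent genes and 9 were variant genes. Cells had been treated for 4 h with 100 nM fulvestrant, which blocks and degrades the estrogen receptor, with 200 nM neratinib, an irreversible inhibitor of the HER family kinases, with both drugs at these doses, or with DMSO, the vehicle. Each treatment was 1 library of a single cell line. No replicate error could therefore be had, nothing was tested between treatments, and every interval given is a 95% interval for counting error alone.

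Replication-dependent histone genes sit in clusters and supply the histones that package newly made DNA, so their transcripts normally accumulate during S phase. Most of these transcripts end in a stem-loop that is bound by the protein SLBP, in place of a poly(A) tail, and they are degraded when DNA synthesis stops. Variant, or replacement, histone genes stand alone in the genome, give polyadenylated transcripts and are used through the whole cell cycle. Some cluster genes can also give polyadenylated transcripts, a form known from differentiated and non-dividing cells. The libraries were made with a 10x Genomics kit that primes on poly(A), so a value below counts the part of each gene's transcripts that this priming captured and not the whole histone mRNA.

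Cells were barcodes with at least 5000 unique molecular identifiers (UMIs, counts of captured molecules) and at least 500 genes. There were 3485 cells in the fulvestrant library, 3507 in the neratinib library, 3876 in the combined library and 4301 in the DMSO library, where 3000 per sample had been targeted. Summed UMIs in these cells lay between 82967775 and 102504452 per library, and median UMIs per cell between 22007 and 23010. Of 15146 cell barcodes, 23 occurred in more than 1 library. The line's own marker ERBB2 stood at 909 to 1019 CPM (UMIs scaled to a common library total) and ESR1 at 11.9 to 18.2 CPM. The 12 markers of the line summed to 10159 CPM with fulvestrant, 8098 CPM with neratinib, 7247 CPM with both drugs and 10681 CPM with DMSO. Among them KRT19 had 2675, 1533, 1100 and 2893 CPM, GATA3 284, 135, 143 and 220 CPM and GRB7 260, 595, 587 and 218 CPM in the same order, so these moved with neratinib, and their part in the histone results was not tested. Of the fibroblast markers COL1A1 was at 10.2 to 12.4 CPM and each of the other 5 was below 0.03 CPM in every library. Summed immune markers reached at most 0.494 CPM and summed endothelial markers, nearly all of them VWF, at most 2.49 CPM. Mitochondrial UMIs moved with neratinib, with medians of 16.7% of a cell's UMIs in the fulvestrant library, 21.1% in the neratinib library, 21.1% in the combined library and 16.2% in the DMSO library. Results were therefore also computed in the cells with at most 20% mitochondrial UMIs, of which there were 2875, 1317, 1463 and 3671 in the same order of libraries.

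A mean of at least 1 CPM over the 4 libraries was reached by 38 members, 29 replication-dependent genes and all 9 variant genes. A further 33 had UMIs but stayed below 1 CPM. No UMI was found for HIST1H3D, HIST1H3I, HIST2H3A, HIST2H3C, HIST3H3, HIST1H4F, HIST1H4G, HIST1H4K and HIST1H4L, which allows each a level of up to 0.00833 CPM, or 3 UMIs over the 4 libraries. By histone family, 4 of 6 linker H1 genes, 8 of 17 H2A genes, 8 of 18 H2B genes, 4 of 15 H3 genes and 5 of 15 H4 genes of the replication-dependent class were measured. The class lies mostly on chromosome 6, with 55 genes, and chromosome 1, with 15, and has a single gene on chromosome 12. Several of these genes have near-identical copies, such as HIST2H4A and HIST2H4B or HIST2H3A and HIST2H3C. The sources used here do not say how reads matching more than one copy were assigned, so the levels of such copies are uncertain.

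HIST1H4C, which encodes the core histone H4, held most of the UMIs of the replication-dependent class. Its level was 328 CPM in the fulvestrant library, 379 CPM in the neratinib library, 396 CPM in the combined library and 370 CPM in the DMSO library. It made up 57.5%, 52.8%, 52.7% and 59.4% of the class's UMIs in the same order. It was also concentrated in few cells, since the 10% of cells with most of its UMIs held between 51.7% and 53.9% of them in each library. Among the linker histone H1 genes, HIST1H1C had 36.6, 43.8, 42.2 and 39.0 CPM in the fulvestrant, neratinib, combined and DMSO libraries. HIST1H1D had 31.5 CPM with fulvestrant, 27.2 CPM with neratinib, 28.1 CPM with both drugs and 34.6 CPM with DMSO. HIST1H1B had 18.9, 20.3, 21.2 and 19.6 CPM and HIST1H1E 17.2, 15.4, 16.03 and 18.9 CPM in the same order of libraries. No linker gene split the libraries as widely as the H2A and H2B genes that follow.

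A second set of genes, coding for the core histones H2A and H2B, split the libraries by neratinib. HIST3H2A had 23.3 CPM in the fulvestrant library, 53.5 CPM in the neratinib library, 53.4 CPM in the combined library and 22.5 CPM in the DMSO library. HIST1H2AC had 22.3 CPM with fulvestrant, 41.0 CPM with neratinib, 46.3 CPM with both drugs and 21.3 CPM with DMSO. HIST1H2BD had 9.30 CPM with fulvestrant, 24.6 CPM with neratinib, 28.9 CPM with both drugs and 9.12 CPM with DMSO. In each of these 3 genes both libraries with neratinib lay above both libraries without it. HIST2H2AC, an H2A gene of the smaller cluster on chromosome 1, followed another order, with 10.3 CPM in the fulvestrant library against 14.6, 14.3 and 14.1 CPM in the neratinib, combined and DMSO libraries.

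The variant genes gave most of the histone UMIs in every library. H3F3A and H3F3B both encode H3.3, which is placed in chromatin outside replication. H3F3A had 2882, 3117, 3071 and 2904 CPM in the fulvestrant, neratinib, combined and DMSO libraries, and H3F3B had 674, 561, 612 and 632 CPM. H2AFZ and H2AFV, which encode forms of H2A.Z found at promoters and enhancers, had 1130 and 395 CPM with fulvestrant, 950 and 377 CPM with neratinib, 920 and 365 CPM with both drugs, and 1104 and 384 CPM with DMSO. H2AFY, which encodes macroH2A, had 333, 306, 302 and 332 CPM in the fulvestrant, neratinib, combined and DMSO libraries. The replacement linker gene H1FX had 298, 368, 361 and 295 CPM, and H1F0, another of this kind, had 79.7, 79.5, 80.5 and 74.8 CPM. H2AFJ, an H2A replacement gene, had 317, 277, 254 and 318 CPM in the same order of libraries. H2AFX encodes the H2A.X that is phosphorylated at DNA breaks, and it had 94.0 CPM with fulvestrant, 63.6 CPM with neratinib, 57.9 CPM with both drugs and 95.2 CPM with DMSO. It was the variant gene whose libraries with and without neratinib stood furthest apart by ratio.

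**Figure D1:**
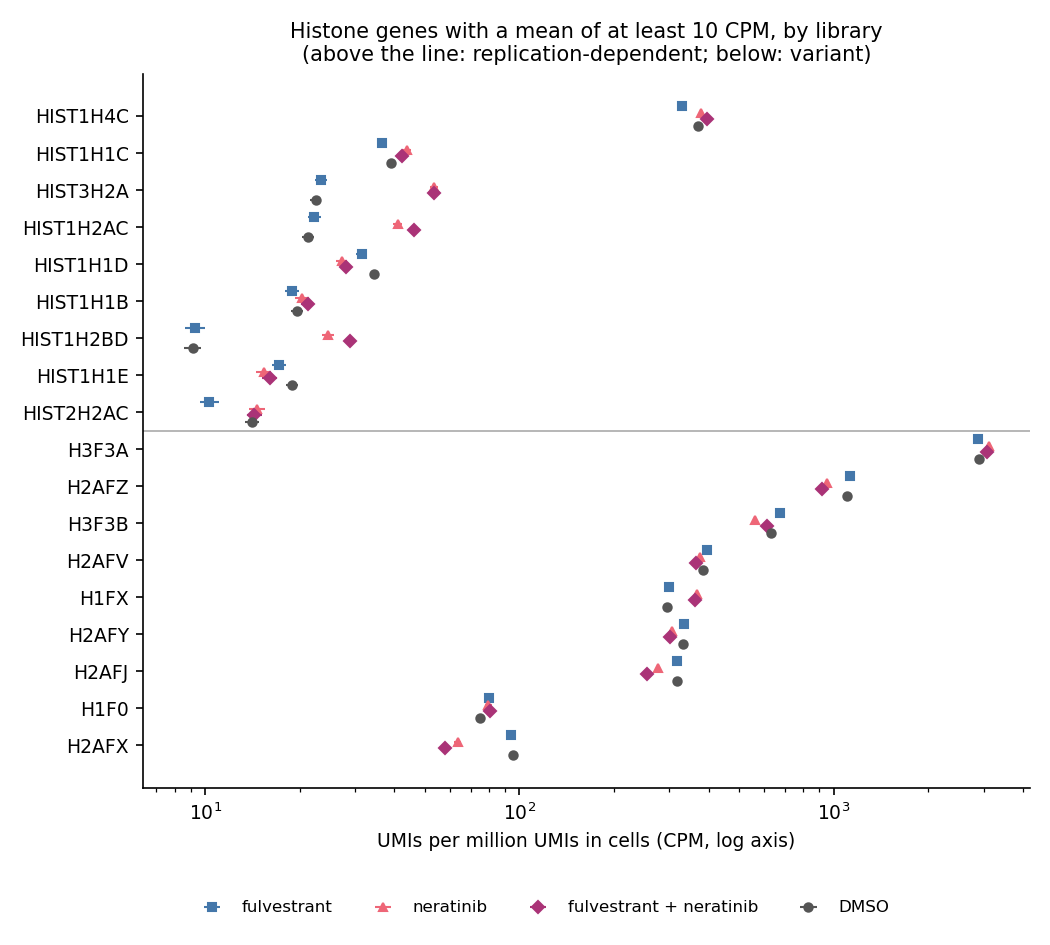
Level of each of the 18 histone genes with a mean of at least 10 CPM, in CPM on a log axis, by library; points are the 4 libraries, bars the 95% Poisson intervals, and the line separates replication-dependent from variant genes. HIST3H2A, HIST1H2AC and HIST1H2BD show the neratinib and combined libraries to the right of the fulvestrant and DMSO libraries, and H2AFX shows them to the left.

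The sequence that marks replication-dependent transcripts was looked up in the GENCODE v29 transcripts, as the stem arms GGNNCT and AGNNCC, required to pair, around the loop NTNN, read on the transcript strand alone. It stood in the annotated transcripts of 31 of the 71 replication-dependent genes, against 101 of 19684 protein-coding genes (0.513%), members included. Of the 71 genes, 35 have a model that ends at the stop codon, so a stem-loop past it could not be found there. Over all members, H2AFX included, it came in 6 forms. The most common form, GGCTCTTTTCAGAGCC, was found in 17 genes. H2AFX was the variant gene that also carried a stem-loop, in a form found in no other member. The windows below are those of the genes on which the neratinib comparison turns, with the stem-loop in capitals and 5 bases on each side.
HIST3H2A: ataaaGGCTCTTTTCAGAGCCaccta
HIST1H2AC: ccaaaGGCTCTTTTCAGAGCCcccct
HIST1H2BD: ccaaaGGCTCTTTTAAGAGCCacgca
HIST2H2BE: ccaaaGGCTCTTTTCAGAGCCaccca
H2AFX: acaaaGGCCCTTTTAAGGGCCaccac
In these models the annotated transcript ran on past the stem-loop, by 390 bases in HIST3H2A, 1114 bases in HIST1H2AC, 39 bases in HIST1H2BD, 1729 bases in HIST2H2BE and 1044 bases in H2AFX.

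The annotated 3′ end went with whether a gene was measured at all. Each gene was classed by the longest end among its protein-coding models. Of 29 replication-dependent genes whose model reaches more than 100 bases past the stop codon, 19 were measured (65.5%). Of 35 genes whose model ends at the stop codon, 8 were measured (22.9%), and of 7 genes with a short end of at most 100 bases, 2 were (28.6%). HIST1H4C, with 51 bases past its stop codon, belongs to the last class. The sources used here do not say whether the counting used the same gene models, and the part that reads beyond a modelled end had in these values was not tested. Overlapping models are a further limit, as HIST1H2BD overlaps LARP1P1 on its own strand, and HIST1H2BN overlaps HIST1H2AL on its own strand.

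The cell cycle divided the replication-dependent genes into 2 patterns. Each cell was called G1, S or G2/M from lists of 43 S and 54 G2/M genes that hold no histone gene, and UMIs were summed over the cells of each phase. A gene was called higher or lower where the log2 ratio lay beyond 0.32 in either direction and its interval lay off 0. In the DMSO library 15 of the 29 measured genes were called higher and 11 lower in S than in G1, where 17.2% of all 12136 measured genes were higher and 20% lower. With fulvestrant 12 were higher and 10 lower (17.5% and 20% of all measured genes), with neratinib 12 and 13 (14.7% and 21.9%), and with both drugs 11 and 11 (15.3% and 22.4%). In all 4 libraries 11 genes were called higher in S and 9 lower, and the other 9 had neither call in all 4. Of the latter only HIST1H3H was called in both directions. The share of all measured genes called the same way in all 4 libraries was not computed.

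The S-high genes were the 4 linker genes HIST1H1B, HIST1H1C, HIST1H1D and HIST1H1E, HIST1H4C, HIST2H2AC, HIST1H2AH, HIST1H2AL and HIST1H3B, and, named here only as members of this pattern, HIST1H2BH and HIST1H3G. HIST1H4C in S cells stood at 590 CPM in the fulvestrant library, 821 CPM in the neratinib library, 830 CPM in the combined library and 705 CPM in the DMSO library, against 53.9, 56.5, 60.8 and 57.0 CPM in their G1 cells. HIST1H1B had the steepest change of the linker genes, with log2 ratios of S over G1 of 6.36, 6.27, 6.36 and 6.20 in the same order. HIST1H1D had ratios of 4.35, 5.29, 5.23 and 4.77. HIST2H2AC was at 15.6, 28.6, 28.0 and 26.0 CPM in S cells. Of these 11 genes 7 have a model that ends at the stop codon, 2 a short end and 2 a long end.

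The S-low genes were HIST3H2A, HIST1H2AC, HIST1H2AE, HIST1H2BD, HIST1H2BG, HIST1H2BJ, HIST1H3E, HIST2H2BE and, named only for this pattern, HIST1H4H. All 9 have a long annotated end by their longest model. HIST1H2BJ, HIST1H3E, HIST1H4H and HIST1H2BD also have a model that runs only 0, 51, 75 and 91 bases past the stop codon. HIST1H2AC in S cells stood at 5.19 CPM with fulvestrant, 7.66 CPM with neratinib, 8.10 CPM with both drugs and 5.40 CPM with DMSO, against 34.0, 67.7, 77.3 and 33.6 CPM in the G1 cells of these libraries. HIST1H2BD had log2 ratios of S over G1 of −3.29, −3.26, −2.95 and −2.63 in the same order, and HIST2H2BE of −2.63, −2.94, −3.04 and −2.51. HIST3H2A was less phased, at −0.66, −0.42, −0.50 and −0.81. The replication-dependent class as a sum was nevertheless higher in S than in G1, by log2 ratios of 1.91 with fulvestrant, 1.71 with neratinib, 1.62 with both drugs and 2.18 with DMSO. All 9 variant genes had their highest level in G2/M cells in each of the 4 libraries, H2AFX among them with 180, 128, 116 and 182 CPM there, against 24.4, 13.2, 13.5 and 24.8 CPM in G1. The size of this change differed between them, and H2AFY and H2AFJ had no S over G1 call in any library.

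**Figure D2:**
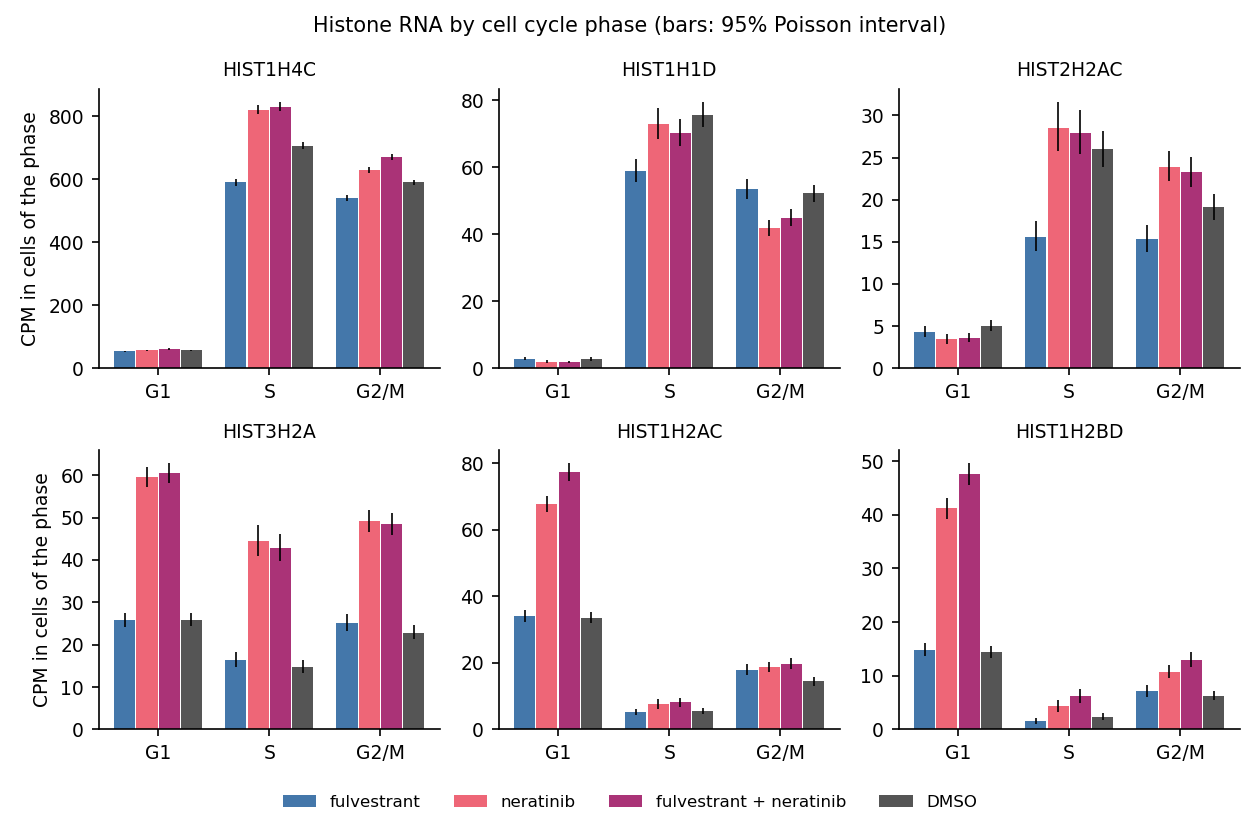
CPM of 6 replication-dependent genes in G1, S and G2/M cells of each library; bars are the pooled level of the cells of that phase, starting at 0. HIST1H4C, HIST1H1D and HIST2H2AC are low in G1 cells in every library, while HIST1H2AC and HIST1H2BD are highest in G1 cells, more so in the neratinib and combined libraries.

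A finer order along the cycle was read by placing cells in 8 equal sectors of the angle formed by their S and G2/M scores. HIST1H4C peaked in the fifth sector, at 865 CPM with fulvestrant, 1135 CPM with neratinib, 1116 CPM with both drugs and 1073 CPM with DMSO, against 47.3, 47.5, 56.8 and 50.2 CPM in the first. The 4 linker genes and HIST2H2AC peaked in the same sector in every library. HIST2H2BE was near its lowest there, at 0.979 CPM with fulvestrant and 0.908 CPM with DMSO, and highest in the first sector, at 8.29, 17.1, 15.5 and 7.21 CPM in the fulvestrant, neratinib, combined and DMSO libraries. H2AFZ, H2AFX, H1FX, H1F0 and H3F3A peaked one sector after HIST1H4C. The eighth sector held only 172 cells, so levels there carry the widest counting error.

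**Figure D3:**
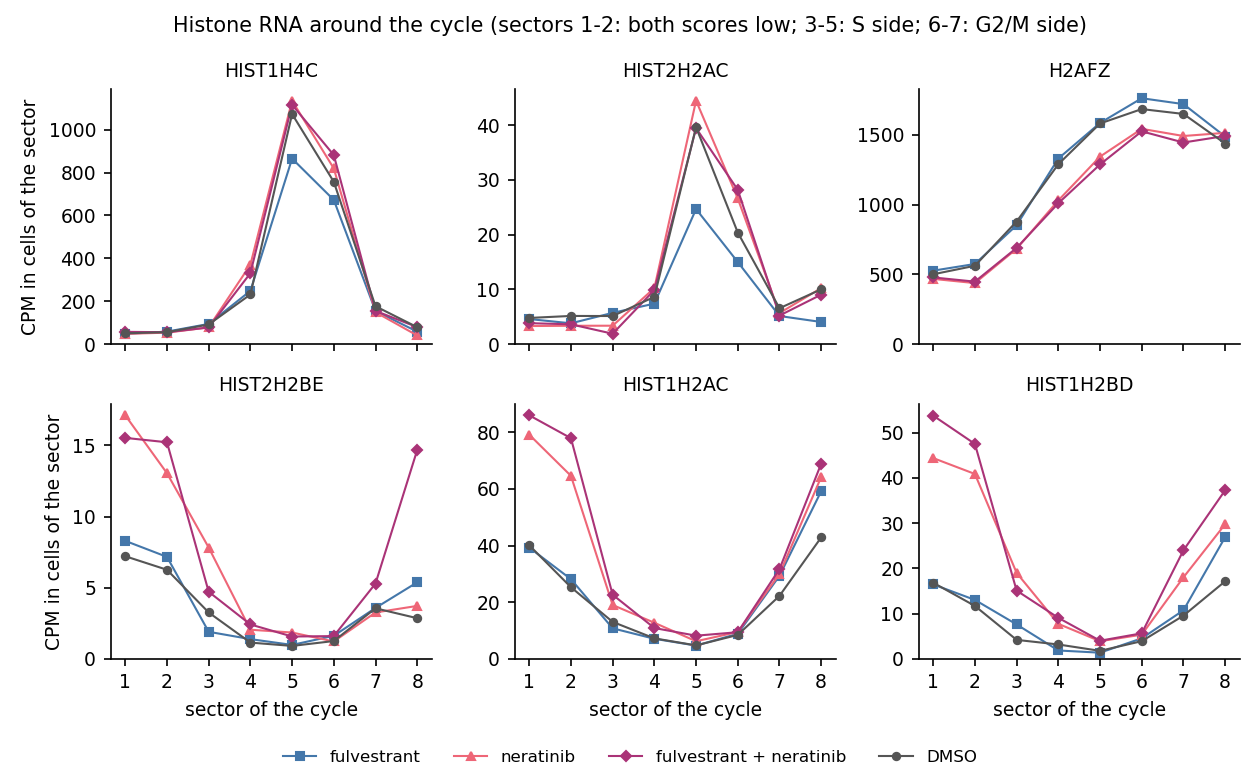
CPM of 6 histone genes over 8 sectors of the cell cycle angle, with 1 line per library. HIST1H4C and HIST2H2AC peak in the fifth sector, H2AFZ in the sixth, and HIST2H2BE, HIST1H2AC and HIST1H2BD are low around the fifth and high in the first.

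Neratinib was read in a pair of comparisons that share no library, neratinib against DMSO and both drugs against fulvestrant. Against DMSO, 14 of the 29 measured replication-dependent genes were called higher with neratinib and 4 lower, where 13.6% of all measured genes were higher and 33.3% lower. For both drugs against fulvestrant 17 were called higher and 1 lower, where 13.8% of all measured genes were higher and 32.4% lower. The genes' median log2 ratios were 0.36 and 0.43, against −0.16 and −0.15 for all measured genes. Called higher in both comparisons were 13 genes, which is 13 of 14 in the first and 13 of 17 in the second. The share of all measured genes called higher in both was not computed, so this overlap is not shown to be particular to histone genes. With both drugs against DMSO, a comparison that shares a library with each of these, 16 were called higher and 2 lower, where 14.9% of all measured genes were higher and 33.3% lower. The 13 genes were HIST3H2A, HIST1H2AC, HIST1H2AE, HIST1H2AG, HIST1H2BC, HIST1H2BD, HIST1H2BF, HIST1H2BG, HIST1H2BJ, HIST1H2BN, HIST2H2BE, HIST1H3E and HIST1H3H.

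Of 8 measured H2B genes 7 were called higher and none lower in each comparison. HIST1H2BD had the largest ratio, 1.43 on the log2 scale with neratinib against DMSO (interval 1.32 to 1.55) and 1.64 with both drugs against fulvestrant. HIST2H2BE, with 8.05 and 8.73 CPM in the neratinib and combined libraries and 4.48 and 4.00 CPM in the fulvestrant and DMSO libraries, had ratios of 1.01 (0.83 to 1.19) and 0.96. HIST1H2BG, HIST1H2BF, HIST1H2BN and HIST1H2BJ had ratios against DMSO of 0.98, 1.10, 0.73 and 0.56. HIST1H2BC, at 5.12 CPM with neratinib against 3.99 CPM with DMSO, had the smallest called ratio, 0.36.

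Of 8 measured H2A genes 5 were called higher and 2 lower with neratinib against DMSO. HIST3H2A had a ratio of 1.248 (1.18 to 1.32) there and 1.20 with both drugs against fulvestrant. HIST1H2AC had 0.94 (0.87 to 1.02) and 1.06, and HIST1H2AE had 1.06 and 1.12. HIST1H2AG had 0.43 and 0.50. HIST2H2AC was not called against DMSO, at 0.05, and was higher with both drugs against fulvestrant, by 0.48 (0.35 to 0.60). HIST1H2AK, named after its values were seen, was higher in the first comparison alone, by 0.43. HIST1H2AH and HIST1H2AL fell, by 0.57 and 0.59 against DMSO, and HIST1H2AH also fell by 0.39 with both drugs against fulvestrant.

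The other core families and the linker genes moved less uniformly. Of 4 measured H3 genes HIST1H3E and HIST1H3H were higher, by 0.88 each against DMSO, and HIST1H3B fell by 0.48. None of 5 H4 genes was called against DMSO, and HIST1H4C differed there by only 0.03 (0.01 to 0.06). Both drugs against fulvestrant gave 3 H4 genes called higher, which, named after their values were seen, were HIST1H4H at 0.38, HIST1H4E at 0.43 (0.015 to 0.845) and HIST2H4A at 0.43 (0.009 to 0.849). HIST2H4A reached a mean of 1 CPM only through the combined library, at 1.32 CPM against 0.980, 0.988 and 0.771 CPM with fulvestrant, neratinib and DMSO, so its call carries little weight. That call was lost in cells with at least 10000 UMIs, and the call of HIST1H4E without the 5% of cells with most UMIs. HIST1H4C had a ratio of 0.27 in that comparison, below the limit for a call. Among the linker genes HIST1H1D fell by 0.34 with neratinib against DMSO, and HIST1H1C, HIST1H1B and HIST1H1E were not called. Among the variant genes H2AFX fell, with a ratio of −0.58 (−0.63 to −0.53) against DMSO and of −0.70 with both drugs against fulvestrant, and no other variant gene was called in either comparison. H1FX came nearest to a call upward, just under the limit with a ratio of 0.32 against DMSO. H2AFJ came nearest downward, at −0.321 with both drugs against fulvestrant, where the limit is 0.322. With both drugs against DMSO 2 variant genes were called lower, H2AFX at −0.72 and H2AFJ at −0.323, and the call of H2AFJ was lost with size factors.

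**Figure D4:**
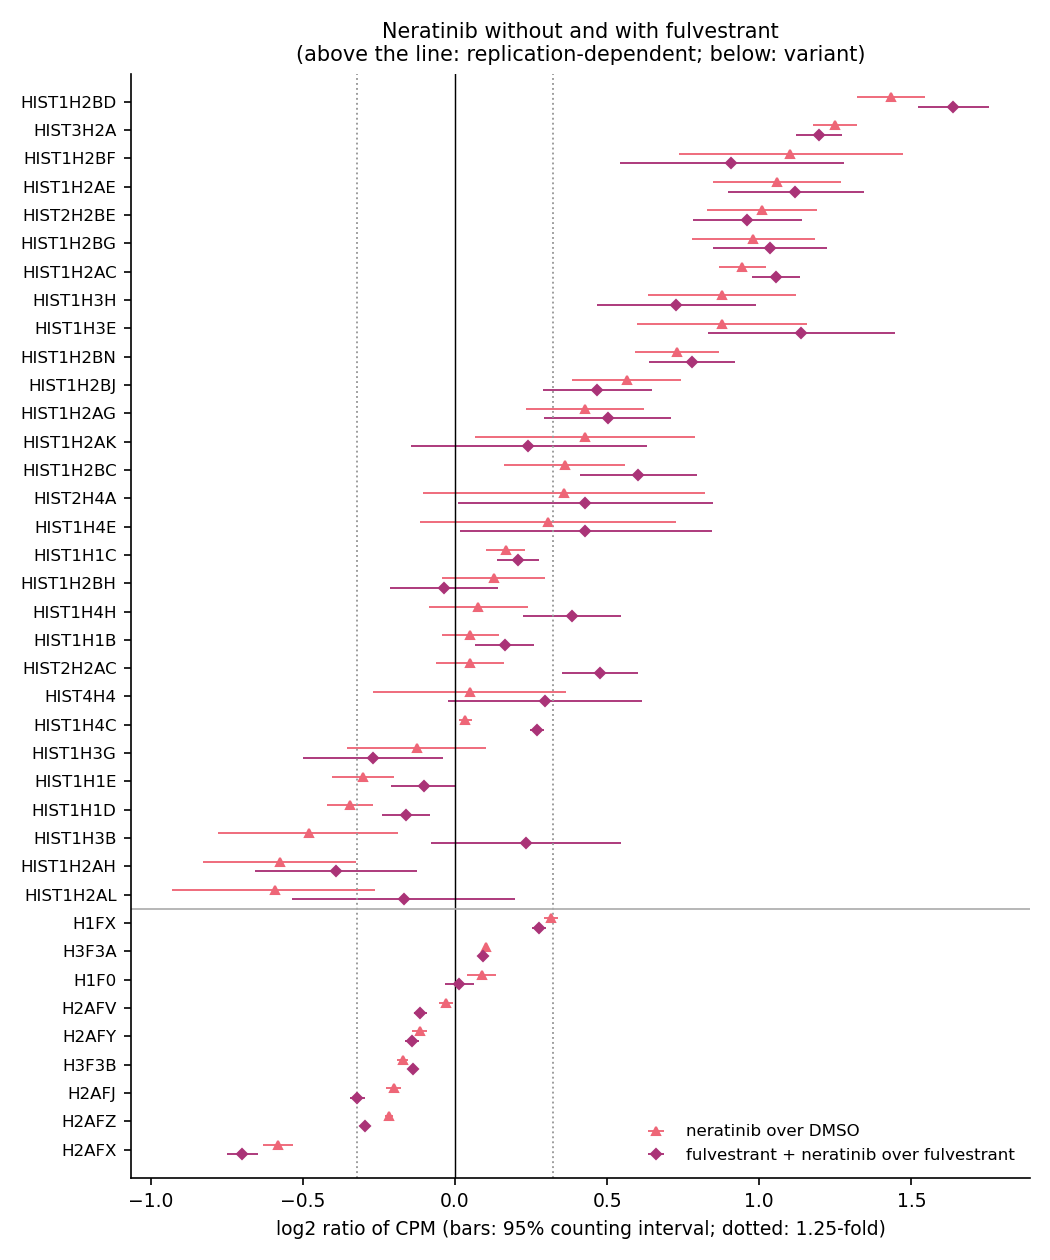
log2 ratio of CPM with its 95% counting interval for the 38 measured histone genes, with neratinib over DMSO and with both drugs over fulvestrant, which share no library; dotted lines mark the limit for a call. Most H2A and H2B genes stand to the right in both, HIST1H2AH stands to the left, and HIST1H4C lies near 0 in the first.

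Most calls of higher genes held in the less mitochondrial cells, and most calls of lower genes did not. In cells with at most 20% mitochondrial UMIs, 12 of the 14 genes called higher with neratinib against DMSO were still called, without HIST1H2BC and HIST1H2AK, and the ratios of HIST3H2A, HIST1H2BD and HIST1H2AC were 1.21, 1.05 and 0.65. None of the 5 genes called lower was still called, with H2AFX at −0.29. How many of all measured genes kept their calls was not counted, so these counts do not set the histone genes apart. The median of all measured genes moved from −0.16 to −0.13 in these cells. With both drugs against fulvestrant 14 of 17 stayed higher, without the 3 H4 genes, and H2AFX stayed lower at −0.45. Scaling by size factors ended the lower calls of HIST1H1D and HIST1H3B against DMSO and of HIST1H2AH against fulvestrant, while it kept all 14 and all 17 higher calls. Among the 38 measured members it also added 4 calls with neratinib against DMSO and 7 with both drugs against fulvestrant. Which members missed a call thus depends on the scaling. The cells with at most 20% mitochondrial UMIs also had another phase mix in the libraries with neratinib. G2/M cells were 38.5% of them with neratinib, against 27.6% of all cells, and 33.8% against 24.2% with both drugs. These shares were 26.0% against 25.4% with DMSO and 24.7% against 23.3% with fulvestrant. The parts of mitochondrial content and of phase mix in these calls were not tested. In barcodes with at most 100 UMIs, which hold mostly free RNA, HIST3H2A was at 28.5 CPM with fulvestrant, 53.1 CPM with neratinib, 68.0 CPM with both drugs and 27.0 CPM with DMSO, near or above its levels in cells, and HIST1H4C at 171, 208, 217 and 202 CPM. HIST1H2BD stood above its level in cells in every library, at 23.2 CPM with fulvestrant, 40.9 CPM with neratinib, 59.1 CPM with both drugs and 13.9 CPM with DMSO in these barcodes. So did HIST1H2AC, at 30.7, 48.6, 54.8 and 26.4 CPM, and HIST2H2BE, at 6.85, 9.47, 11.4 and 6.46 CPM, in the same order of libraries. The part of free RNA in the ratios of these genes was not tested.

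Summed over the class, replication-dependent genes reached 571 CPM with fulvestrant, 717 CPM with neratinib, 750 CPM with both drugs and 623 CPM with DMSO. The log2 ratio was 0.20 with neratinib against DMSO and 0.39 with both drugs against fulvestrant. Without HIST1H4C the sums were 243, 338, 354 and 253 CPM, and these ratios were 0.42 and 0.55. H2A genes differed by 0.79 and H2B genes by 0.85 with neratinib against DMSO, when summed by family. The variant sum was 6202, 6098, 6024 and 6139 CPM and its ratio −0.01 and −0.04. These small variant ratios depend on the processing, since scaling by median-of-ratios size factors, which moves the median of all measured genes with neratinib against DMSO from −0.16 to 0.02, gave 0.17 and 0.13.

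Fulvestrant gave fewer calls among histone genes than neratinib did. Against DMSO 1 of the 29 measured replication-dependent genes was called higher (3.45%) and 3 lower (10.3%) with fulvestrant, and no variant gene was called. Of all measured genes 1.23% were higher and 1.8% lower, so the shares of the class were above these, though on few genes. HIST1H2BG rose by 0.33 (0.11 to 0.56), and HIST2H2AC, HIST1H3B and HIST1H2AL fell by 0.45, 0.47 and 0.46. HIST1H4C had a ratio of −0.17, or 328 against 370 CPM. With both drugs against neratinib HIST1H2BC and HIST1H2BG were called higher, by 0.34 and 0.39, and none lower. That is 6.90% of the 29 genes higher, where 1.57% of all measured genes were higher and 2% lower. The call of HIST1H2BC was lost without the 5% of cells with most UMIs. HIST1H2BG was thus called in both fulvestrant comparisons, at 4.05 CPM with fulvestrant against 3.22 CPM with DMSO and at 8.30 CPM with both drugs against 6.35 CPM with neratinib.

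Fulvestrant was also compared within S cells alone. Of the 11 S-high genes 4 were called lower with fulvestrant against DMSO and none higher, where 1.52% of all measured genes were higher and 2.35% lower in S cells. These 11 were chosen by their S over G1 levels in the same libraries, so the count is not independent of that choice. Of all 29 measured genes of the class 5 were lower and 1 higher. HIST2H2AC fell by 0.74, HIST1H1D by 0.36, HIST1H3B by 0.59 and HIST1H2AL by 1.18. HIST1H4C had a ratio of −0.26 (−0.29 to −0.22) in S cells and was not called. For both drugs against neratinib none of the 11 was called in S cells (2.41% of all measured genes higher, 2.18% lower), and HIST1H4C and HIST2H2AC had ratios of 0.02 and −0.03. S cells made up 21.3% of the fulvestrant library, 14.2% of the neratinib library, 16.2% of the combined library and 19.6% of the DMSO library. When every cell was thinned to 5000 UMIs these shares were 17.8%, 11.2%, 12.5% and 15.5%.

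By phase, the median neratinib ratio of the S-low genes was largest in G1 cells. Among the 9 S-low genes 8 were called higher with neratinib against DMSO in G1 cells, where 14.6% of all measured genes were, with a median ratio of 1.11. In S cells 4 of 9 were called higher, against 10.9% of all measured genes, with a median of 0.56, and in G2/M cells 4 of 9, against 10.8%, with a median of 0.21. With both drugs against fulvestrant the counts were 9, 4 and 5 of 9 in G1, S and G2/M cells, against 15%, 11.5% and 10.5% of all measured genes. The S-low genes were chosen by S and G1 levels in these same libraries, so their counts and medians are not independent of that choice. Of all 29 measured genes of the class 15, 5 and 8 were higher with neratinib against DMSO in G1, S and G2/M cells. With both drugs against fulvestrant 16, 9 and 9 of 29 were. HIST1H2AC in G1 cells had 67.7 CPM with neratinib against 33.6 CPM with DMSO, and HIST1H2BD had 41.2 against 14.4 CPM. Some genes had their largest ratio outside G1 cells. With neratinib against DMSO HIST3H2A had ratios of 1.20, 1.59 and 1.10 in G1, S and G2/M cells, and HIST1H2BJ 0.91, 1.81 and −0.02. HIST1H4H had 0.09, −0.83 and 0.13 there, and was called lower in S cells. With both drugs against fulvestrant HIST3H2A, HIST1H2BD and HIST1H2AE had their largest ratios in S cells, at 1.39, 2.02 and 1.36. Intervals were wide in S cells, as for HIST2H2BE at 0.68 (−0.17 to 1.53) with neratinib against DMSO, which limits calls there. Over the whole class the summed ratio with neratinib against DMSO was 0.68 in G1 cells, 0.21 in S cells and 0.12 in G2/M cells, and with both drugs against fulvestrant 0.78, 0.49 and 0.27.

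Phase shares differed between libraries, so each ratio was also computed with every library's phases weighted as in DMSO. The summed class then differed by 0.27 with neratinib against DMSO, where it differed by 0.20 over all cells, and by 0.45 with both drugs against fulvestrant, where it differed by 0.39. HIST1H4C had a ratio of 0.14 at the DMSO weights and 0.03 over all cells, and HIST1H1D of −0.19 and −0.34. HIST1H2BD had 1.35, HIST3H2A 1.23, HIST1H2AC 0.87 and H2AFX −0.56 at those weights, all near their values over all cells.

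**Figure D5:**
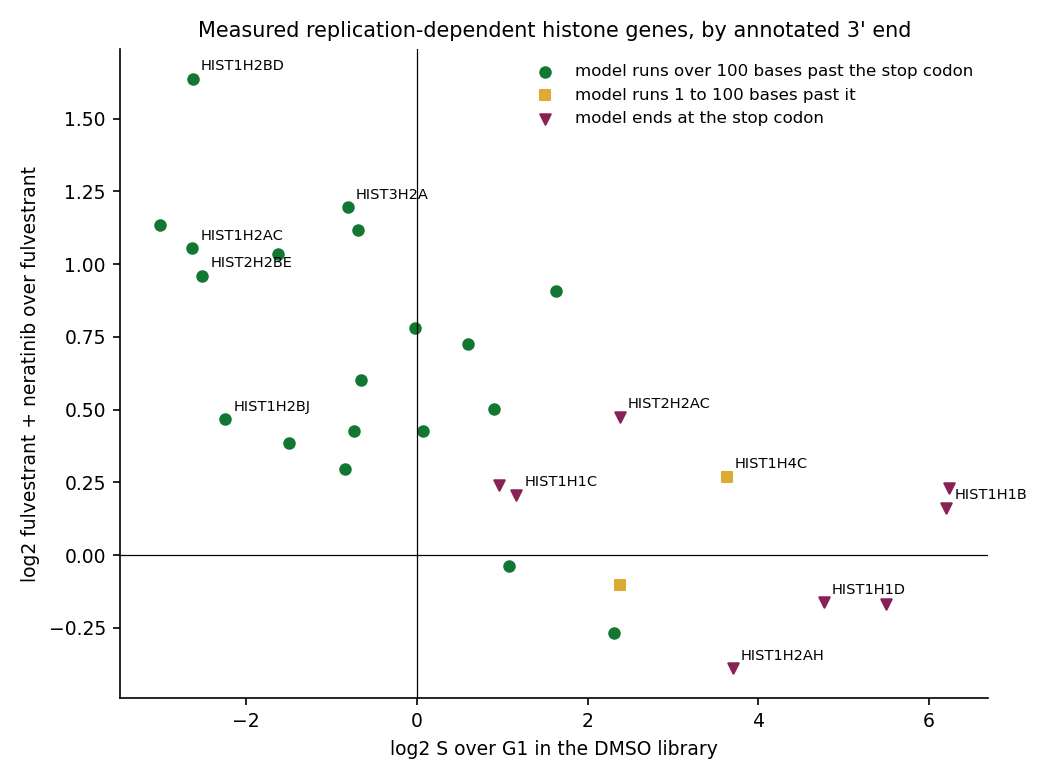
For the 29 measured replication-dependent genes, log2 ratio of S over G1 in the DMSO library on the x axis and of both drugs over fulvestrant on the y axis, which use no library in common, coloured by the longest annotated 3′ end. Genes left of 0 in S over G1 have long ends and lie above 0 on the y axis, while HIST1H4C, at 3.63 on the x axis, lies at 0.27.

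By annotated end, 13 of the 19 measured genes with a long end were called higher with neratinib against DMSO and none lower, against 13.6% and 33.3% of all measured genes, with a median of 0.73. With both drugs against fulvestrant 16 of the 19 were higher and none lower, against 13.8% and 32.4% of all measured genes, also with a median of 0.73. Among the 16 is HIST2H4A, which was measured only through its level in the combined library. Among the 8 whose model ends at the stop codon 1 was called higher and 4 lower in the first comparison, with a median of −0.15, and 1 higher and 1 lower in the second, where the sign of the median turned, at 0.19. The 4 lower calls were lost in cells with at most 20% mitochondrial UMIs. Neither of the 2 short ones was called in either comparison. The S-high pattern was found in 7 of these 8 and in 2 of the 19 with a long end, and the S-low pattern in none and in 9. A list of 7 genes taken from general knowledge of polyadenylated cluster transcripts had 6 measured members, of which 5 were higher with neratinib against DMSO, where 13.6% of all measured genes were, and HIST1H1C was not called at 0.17. No difference between the classes of annotated end was tested.

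Paired genes that start back to back offered a comparison within a shared promoter region. Starts at most 1000 bases apart on opposite strands were found for 12 pairs, and in 4 of these both genes were measured. HIST1H2BC and HIST1H2AC (219 bases apart), HIST1H2BG and HIST1H2AE (283 bases) and HIST1H2BJ and HIST1H2AG (292 bases) were all called higher with neratinib against DMSO. HIST2H2BE and HIST2H2AC start 323 bases apart, and against DMSO HIST2H2BE was higher (1.01) while HIST2H2AC stood at 0.05. With both drugs against fulvestrant both were called higher, HIST2H2BE by 0.96 and HIST2H2AC by 0.48. The 2 genes also differed in phase, HIST2H2BE being lower and HIST2H2AC higher in S than in G1 in all 4 libraries. HIST3H2A and its partner HIST3H2BB, 234 bases apart, had ratios of 1.248 and 1.29, though HIST3H2BB averaged only 0.793 CPM.

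Promoter sequences of 3 of the higher genes are given because each of these has a partner gene on the other side of its promoter, as the 250 bases upstream of the RefSeq start in GRCh38.p14. Capitals mark CCAAT on either strand, TATAAA on the strand shown, and ATTTGCAT, the octamer bound by OCT1, on either strand. HIST3H2A lies at chr1:228457874-228458123 (minus strand), HIST1H2AC at chr6:26123922-26124171 (plus strand) and HIST2H2BE at chr1:149886683-149886932 (minus strand).
HIST3H2A: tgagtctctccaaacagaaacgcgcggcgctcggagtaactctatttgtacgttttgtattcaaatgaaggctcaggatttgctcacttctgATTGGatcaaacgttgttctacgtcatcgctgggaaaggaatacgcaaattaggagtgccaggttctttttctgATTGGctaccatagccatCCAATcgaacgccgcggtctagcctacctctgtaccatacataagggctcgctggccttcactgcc
HIST1H2AC: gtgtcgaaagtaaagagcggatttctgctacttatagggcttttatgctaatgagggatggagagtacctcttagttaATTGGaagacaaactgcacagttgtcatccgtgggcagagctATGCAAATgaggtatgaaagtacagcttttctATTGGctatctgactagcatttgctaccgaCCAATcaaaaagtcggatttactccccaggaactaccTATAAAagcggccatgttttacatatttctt
HIST2H2BE: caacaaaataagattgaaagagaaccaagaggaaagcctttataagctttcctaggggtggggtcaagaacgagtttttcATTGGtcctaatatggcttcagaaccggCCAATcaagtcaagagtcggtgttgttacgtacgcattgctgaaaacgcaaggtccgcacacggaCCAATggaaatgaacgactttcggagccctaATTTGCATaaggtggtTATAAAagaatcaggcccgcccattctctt
Each held CCAAT 3 times, and HIST1H2AC and HIST2H2BE held 1 TATAAA and 1 ATTTGCAT, letters that are not in this window of HIST3H2A. Promoter entries were at hand for 69 members. In windows of 300 bases, CCAAT was found for 51 of 61 replication-dependent genes (83.6%) and 34.6% of 35116 promoters, TATAAA for 57.4% and 7.33%, and ATTTGCAT for 42.6% and 1.77%. Of the H2B genes 77.8% held ATTTGCAT and of the H4 genes none. A match describes the letters and shows no binding.

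Genes that make, process and handle histones were counted from a list of 49 chosen from general knowledge. With neratinib against DMSO 3 were called higher and 18 lower, and with both drugs against fulvestrant likewise 3 and 18. Against DMSO that is 6.12% higher, below the 13.6% of all measured genes, and 36.7% lower, near the 33.3% of all measured genes, so the lower count does not set the list apart. No gene of the list was called with fulvestrant against DMSO. HINFP, a transcription factor of H4 genes, rose by 0.76, at 12.5 CPM with neratinib against 7.39 CPM with DMSO, and LSM11 and SYMPK, of the machinery that cuts histone transcripts, rose by 0.45 each. The lowest ratios were those of CCNE1, which encodes cyclin E1, at −2.07 (1.46 against 6.13 CPM), of E2F3 at −1.73 and of LSM10, a partner of LSM11, at −1.24 (22.2 against 52.3 CPM). SLBP had a ratio of −0.38. By role, against the same 13.6% higher and 33.3% lower of all measured genes, 1 of 10 transcription genes was higher and 5 lower, 2 of 9 genes of 3′ end processing were higher and 6 lower, none of 6 decay genes was higher and 2 were lower, and none of 24 chaperone genes was higher and 5 were lower.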

How the data were processed

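The authors deposited raw UMI counts, as whole numbers, of 33538 genes for the unfiltered barcodes of all 4 libraries. The submitters' processing notes name Cell Ranger 3.1.0 and hg19. For aligner settings, gene annotation and any evening of depth between libraries, the steps are not stated in the labels. Barcodes were assigned to libraries by the number at their end, matched to the number that opens each sample title.

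Cells had at least 5000 UMIs and 500 genes, with no ceiling on mitochondrial UMIs, and doublets were not called. UMIs were summed over the cells of a library, or of a library and phase, and divided by all UMIs of those cells to give CPM, with exact Poisson intervals. Ratios of CPM carry exact conditional binomial intervals, and shares exact binomial ones, all at 95% and for counting error only. A gene was measured at a mean of at least 1 CPM and called at a log2 ratio beyond 0.32 with the interval off 0, and the rule ran on all genes. It was tested on simulated counts. Phases were scored with scanpy 1.11.5 on Python 3.11.15, with scipy 1.17.1. Members with a mean of at least 10 CPM are given in every library, others from 1 CPM where called in at least 2 of the 3 comparisons with DMSO, and of the 49 supply genes the 3 highest and 3 lowest called ratios. The members and lists were chosen with earlier results of these data known. Gene ends and stem-loops came from GENCODE v29 transcripts (all 80 symbols matched), promoters from RefSeq, and the deposited gene identifiers were used as they stand.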

Additional observations from a re-analysis of the deposited data

How the results depend on the processing

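No paired analysis was possible because each treatment had 1 library, and for the same reason no library could be left out. All ratios below are log2. For the summed replication-dependent genes, size factors gave 0.38 with neratinib against DMSO, 0.45 with both drugs against DMSO and 0.56 with both drugs against fulvestrant. Totals without mitochondrial genes gave 0.29, 0.35 and 0.47 in that order, cells with at most 20% mitochondrial UMIs 0.29, 0.35 and 0.47, and the mean over cells 0.23, 0.31 and 0.45. Without HIST1H4C they were 0.42, 0.49 and 0.55, and −0.059 with fulvestrant against DMSO. Without the 5% of cells with most UMIs both drugs against fulvestrant gave 0.41. The direction of the class sum was thus kept in each of these, and the cause of the moves was not tested.

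For the summed variant genes, the order is fulvestrant against DMSO, neratinib against DMSO, both drugs against DMSO, and both drugs against fulvestrant. Size factors gave 0.022, 0.17, 0.15 and 0.13, totals without mitochondrial genes 0.026, 0.076, 0.058 and 0.032, and the mean over cells 0.00124, −0.039, −0.051 and −0.052. Cells with at most 20% mitochondrial UMIs gave 0.025, 0.12, 0.087 and 0.062, and −0.028 with both drugs against neratinib. Without the 5% of cells with most UMIs both drugs gave −0.033 against DMSO and −0.049 against fulvestrant. Fulvestrant against DMSO stayed positive in these, while the 3 comparisons that add neratinib changed sign with size factors, with totals without mitochondrial genes and in cells with at most 20% mitochondrial UMIs.

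Counts of members called higher were 7 with neratinib against DMSO, 8 with both drugs against DMSO, 1 with both drugs against neratinib and 9 with both drugs against fulvestrant when a mean of at least 5 CPM was asked for, since fewer genes then qualify. At a 1.5-fold limit they were 11 with both drugs against fulvestrant, and 0 with fulvestrant against DMSO and with both drugs against neratinib. With no minimum level 2 were higher with fulvestrant against DMSO, and without the 5% of cells with most UMIs 1 was with both drugs against neratinib, which lost HIST1H2BC. Counts of members called lower at 5 CPM were 1 for fulvestrant, 2 for neratinib and 2 for both drugs, each against DMSO, and 1 with both drugs against fulvestrant. At 1.5-fold they were 0 with fulvestrant and 1 with neratinib against DMSO, and 1 with both drugs against fulvestrant. Size factors left 3 with neratinib against DMSO and 1 with both drugs against fulvestrant, and totals without mitochondrial genes left 1 in the last. Cells with at most 20% mitochondrial UMIs left 0 with neratinib against DMSO, and 1 with both drugs against DMSO and against fulvestrant. With no minimum level there were 8 with both drugs against DMSO, 4 against neratinib and 4 against fulvestrant. In cells with at most 20% mitochondrial UMIs 2 ratios turned round with both drugs against fulvestrant, HIST1H4H to −0.0075 and HIST1H2AH to 0.065.

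The ratio of S over G1 for the summed class, with phases called after thinning every cell to 5000 UMIs, was 1.84 for fulvestrant, 1.65 for neratinib, 1.51 for the combined library and 2.09 for DMSO. A score limit of 0.1 gave 1.85 with fulvestrant, 1.81 with neratinib and 2.09 with DMSO, scoring within each library 1.68 with neratinib, and cells with at most 20% mitochondrial UMIs 1.96 with neratinib and 1.89 with both drugs. At the DMSO phase weights, thinning gave 0.24 with neratinib against DMSO and 0.43 with both drugs against fulvestrant. Scoring within each library gave 0.33 with neratinib and 0.38 with both drugs against DMSO, and 0.50 with both drugs against fulvestrant. Depth limits the rare members most, as 33 members had UMIs but stayed below 1 CPM.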
